A study of Homo sapiens with 33 samples.

Results

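The mRNA that encodes PUM2 was tested for recovery with its own protein, as 81 short synthetic pieces, here called tiles, carried in a pool of 1599. These are the tiles whose name gives PUM2 as the source RNA. The pool covers 23 source RNAs, and the 5 pools of the series hold 3358 tiles in all. Each tile is present with 22 barcodes, so that 1 stretch of RNA is read out through 22 marked versions. HEK293T cells, a line derived from human embryonic kidney, received the pool by transfection, with no other protein added. Harvest followed after 48 hours, and fixation in 0.1% formaldehyde lasted 10 minutes. The compared groups were 3 Input libraries and 3 libraries from a precipitation with an antibody against PUM2, called the immunoprecipitate below. Primers annealed to sites shared by all oligonucleotides of the pool, so the reads come from tiles and not from the cell's own PUM2 mRNA. No precipitation with a control antibody was among these groups, so recovery with PUM2 and recovery with any antibody cannot be told apart. Whether the replicates are separate cultures is not stated in the labels, and the p-values may therefore reflect technical spread alone.

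PUM2 is a Pumilio protein. Proteins of this family bind single-stranded RNA through a curved array of repeats, each of which contacts a base, and favour elements that begin with UGUA, most often in the 3′ untranslated regions of mRNAs. Bound Pumilio proteins recruit deadenylases and so lower translation and stability of the mRNA. The PUM2 mRNA itself is among the reported targets of the family, and the comparison asks which stretches of the PUM2 mRNA its own protein may meet. The measurement here is recovery of a tile relative to Input. It is not a measure of how much PUM2 mRNA or protein the cells made. Tile names give a number and no position, and sequences were not used here, so no tile is assigned to the coding part or to an untranslated region.

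The Input libraries held 29433144 to 35092298 reads and the immunoprecipitates 15986799 to 17727926. Of these, 1127208 to 1384142 reads in Input and 674717 to 749781 in the immunoprecipitate belonged to PUM2 mRNA tiles. All PUM2 mRNA tiles together took 3.83%, 3.79% and 3.94% of the reads of Input A, B and C, and 4.12%, 4.22% and 4.23% in immunoprecipitates A, B and C. Each immunoprecipitate thus lay above each Input library, by 0.335 percentage points on average (exact two-sided permutation test, p = 0.1, the smallest that 3 libraries against 3 can give). The small gain of the whole mRNA hides large differences between its tiles.

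Tiles of the PUM2 mRNA were recovered unevenly. Most rises lay among tiles 41 to 70, where the largest was 16.4-fold. The largest of the mRNA, 42.4-fold, was that of PUM2:80, outside this stretch. Most tiles did not pass the test. Of the 79 tiles tested by the quasi-likelihood test of edgeR, 20 rose (25.3%), 5 fell (6.33%) and 54 did not pass at an adjusted p of 0.05. Over all 1563 tested tiles of the pool, 14.1% rose and 4.16% fell. The share that rose was thus above that of the pool, and the share that fell was close to it. The median log2 fold change of the 79 tiles was -0.04, against -0.06 for all tested tiles. With PUM2:76, which had no read in any immunoprecipitate, set at its bound, the median was still -0.04. PUM2:1 and PUM2:2 had no read in any of the 6 libraries and were not tested.

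All 3 immunoprecipitates lay above all 3 Input libraries in 27 PUM2 mRNA tiles, and below them in 18. In the pool these shares were 19.7% and 20.6% of tested tiles. All 25 called tiles were among those whose libraries did not overlap. Of the 54 tiles that did not pass, 7 lay above Input in every library, 13 lay below it and 34 overlapped.

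The rises were concentrated by tile number. In blocks of 10 numbers, 1 of 8 tested tiles rose among tiles 1 to 10, 0 of 10 among tiles 11 to 20, 0 of 10 among tiles 21 to 30 and 1 of 10 among tiles 31 to 40. Then 5 of 10 rose among tiles 41 to 50, 5 of 10 among tiles 51 to 60 and 6 of 10 among tiles 61 to 70. Among tiles 71 to 80, 1 rose and 3 fell, and the single tile of the last block, PUM2:81, rose. Joined after the values were seen, tiles 41 to 70 held 16 of the 20 rises (53.3% of 30), whereas tiles 1 to 40 held 2 (5.26% of 38 tested). These groups also differed in Input level, which is given below.

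The higher medians of tiles 41 to 70 appeared in each immunoprecipitate. Against the mean of Input, the median log2 ratio of tiles 41 to 50 was 1.97, 1.50 and 1.87 in immunoprecipitates A, B and C, that of tiles 51 to 60 was 0.97, 2.65 and 1.73, and that of tiles 61 to 70 was 1.51, 1.71 and 1.69. The 4 blocks before them had medians between -0.52 and 0.11 in every immunoprecipitate. For tiles 71 to 80 the medians were -0.49, -0.65 and -0.86. In each library the 3 middle blocks therefore lay above all others except the last, which holds only PUM2:81.

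As a share of all PUM2 mRNA reads, tiles 41 to 70 took 14.2%, 13.3% and 12.8% in Input A, B and C. They took 33.3%, 37.4% and 29.4% in immunoprecipitates A, B and C. Tiles 1 to 40 went the other way, from 77.1% ± 0.933 in Input to 58.0% ± 3.66 in the immunoprecipitate (SD, n = 3 each). Tiles 71 to 81 took 9.43% ± 0.242 and 8.64% ± 0.359. These shares are parts of a whole, so a gain of tiles 41 to 70 lowers the rest. On scaled values tiles 1 to 40 had a median log2 fold change of -0.18, and 2 of 38 tested tiles rose and 2 fell. The borders of these groups were joined with the values known, so no test is given.

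The strongest of all was PUM2:80. It had 27.5, 20.4 and 38.5 CPM in Input A, B and C (CPM, read counts scaled to a common library size with TMM factors), and 1168, 1222 and 1281 CPM in immunoprecipitates A, B and C. The lowest immunoprecipitate was thus far above the highest Input library. The log2 fold change was 5.41 ± 0.28 (SE, n = 3 against 3), or 42.4-fold (adjusted p = 3.51e-06 in edgeR). All 22 of its barcodes were higher in the immunoprecipitate, and 14 of them had reads in each of the 3 libraries. No barcode took more than 17.2% of its reads in any immunoprecipitate, so the rise was spread over the barcodes. The tiles next to it had other values. PUM2:81, the highest tile number of the mRNA, rose 9.41-fold (3.23 ± 0.55, adjusted p = 0.00377 in edgeR). PUM2:79 was at -0.87 ± 0.62 and did not pass (adjusted p = 0.410 in edgeR).

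The rises at PUM2:80 and PUM2:81 were unequal in how many barcodes they rested on. PUM2:81 had 15.0, 21.5 and 30.9 CPM in Input and 193, 339 and 103 CPM in the immunoprecipitate. Of its 19 barcodes with at least 30 reads, 13 were higher, and only 2 had reads in all 3 immunoprecipitates. Its libraries did not overlap, but immunoprecipitate B held over 3 times the level of C.

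The next strongest group was a run of 3 tiles, PUM2:47 to PUM2:49. PUM2:48 had 45.1, 40.2 and 41.9 CPM in Input A, B and C and 539, 922 and 630 CPM in immunoprecipitates A, B and C. The rise was 16.4-fold (4.04 ± 0.27, adjusted p = 1.29e-05 in edgeR), with all 21 usable barcodes higher. Input libraries of this tile differed little, and the immunoprecipitates varied by less than their distance from Input.

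PUM2:49 had 47.6, 50.8 and 38.9 CPM in Input and 529, 616 and 352 CPM in the immunoprecipitate, a 10.9-fold rise (3.45 ± 0.29, adjusted p = 6.28e-05 in edgeR). PUM2:47 had 36.5, 36.2 and 33.2 CPM in Input and 344, 277 and 251 CPM in the immunoprecipitate, an 8.23-fold rise (3.04 ± 0.29, adjusted p = 0.000110 in edgeR). All 21 usable barcodes of PUM2:47 were higher, and 15 of 19 for PUM2:49. Barcodes with reads in all 3 immunoprecipitates numbered 13 for PUM2:47, 10 for PUM2:48 and only 3 for PUM2:49. In immunoprecipitate C, the reads of PUM2:49 came from 6 barcodes. The 3 tiles were thus alike in Input, and in each the 3 immunoprecipitates stood apart from it.

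The tiles on either side of this run were scarce in Input and did not pass. PUM2:46 had 37, 36 and 70 reads in Input A, B and C, and 229, 201 and 142 in immunoprecipitates A, B and C. Its log2 fold change was 3.18 ± 1.20 (adjusted p = 0.115 in edgeR), and all 9 of its usable barcodes were higher. PUM2:50 was at 2.63 ± 0.78 (adjusted p = 0.0536 in edgeR). Its reads came from 4, 2 and 3 barcodes in immunoprecipitates A, B and C, and 5 of 11 usable barcodes were higher. For PUM2:51 the value of 4.01 ± 2.08 (adjusted p = 0.245 in edgeR) rested on 65 Input reads and on 341 and 102 reads of 1 barcode each in immunoprecipitates B and C, with 0 in A. These 3 had the highest values among tiles that did not pass, and a rise of PUM2:46, PUM2:50 or PUM2:51 could not be told from the spread in the main fit. PUM2:44 and PUM2:45, which precede them, rose by 1.11 ± 0.26 and 1.30 ± 0.19 on the log2 scale (adjusted p = 0.0191 and 0.00140 in edgeR).

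A longer run of 5 tiles, PUM2:58 to PUM2:62, held the tile with most immunoprecipitate reads of the mRNA. PUM2:59 had 425, 397 and 380 CPM in Input A, B and C and 3219, 3298 and 2491 CPM in immunoprecipitates A, B and C. It rose 7.50-fold (2.91 ± 0.14, adjusted p = 2.72e-06 in edgeR), with 19 of 20 usable barcodes higher. Its standard error was the smallest among the tiles that rose more than 4-fold.

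The other tiles of that run rose by similar amounts. PUM2:58 rose 5.79-fold (2.53 ± 0.25), from 141, 131 and 133 CPM to 541, 985 and 814 CPM in libraries A, B and C. PUM2:60 rose 6.49-fold (2.70 ± 0.40), from 75.4, 100 and 71.4 CPM to 619, 725 and 260 CPM. In PUM2:60 immunoprecipitate C was the low one, as it also was in PUM2:59. PUM2:61 and PUM2:62 rose 5.34-fold and 5.60-fold, with reads from 14 and 12 barcodes in at least 1 immunoprecipitate and from 0 and 1 barcodes in all 3. Without the most-read barcode of every tile, neither passed (adjusted p = 0.0559 and 0.0572 in edgeR).

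PUM2:64 to PUM2:67 formed a run of 4. PUM2:67 had 250, 315 and 200 CPM in Input A, B and C and 3173, 2912 and 1799 CPM in immunoprecipitates A, B and C. The rise was 10.3-fold (3.36 ± 0.26, adjusted p = 3.68e-05 in edgeR), with all 22 barcodes higher and 19 of them present in every immunoprecipitate. PUM2:66 had 94.6, 58.8 and 59.1 CPM in Input and 577, 968 and 491 CPM in the immunoprecipitate, a 9.58-fold rise (3.26 ± 0.34, adjusted p = 0.000226 in edgeR). In both tiles the libraries of the 2 groups were far apart.

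The lower numbers of this run had smaller rises: PUM2:65 by 3.45-fold (1.79 ± 0.16) and PUM2:64 by 2.87-fold (1.52 ± 0.28). PUM2:63, which separates the runs, had 130, 118 and 125 CPM in Input and 313, 216 and 121 CPM in the immunoprecipitate. Its groups overlapped, and it did not pass (0.80 ± 0.37, adjusted p = 0.188 in edgeR). PUM2:68, on the other side, was at 0.47 ± 0.26 (adjusted p = 0.272 in edgeR). The fall in value from PUM2:67 to PUM2:68 was from 10.3-fold to 1.39-fold between consecutive numbers.

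A pair, PUM2:53 and PUM2:54, rose 4.06-fold and 5.40-fold (2.02 ± 0.29 and 2.43 ± 0.31, adjusted p = 0.00143 and 0.000733 in edgeR). PUM2:52, just before it, was at -0.03 ± 0.63, with 29.3, 147 and 57.4 CPM in immunoprecipitates A, B and C. PUM2:55, just after it, was among the lowest tiles that did not pass.

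Between these runs lay tiles of low recovery. PUM2:55 had 125, 114 and 124 CPM in Input and 12.4, 35.0 and 52.3 CPM in the immunoprecipitate. PUM2:56 had 289, 217 and 224 CPM in Input and 55.7, 87.7 and 148 CPM in the immunoprecipitate. Every immunoprecipitate of both tiles was below every Input library, yet neither passed (-1.86 ± 0.60 and -1.32 ± 0.39, adjusted p = 0.0721 and 0.0536 in edgeR). PUM2:57, next to the run at 58, was at 0.24 ± 0.29. The third of the lowest tiles that did not pass, PUM2:43, had 84.8, 12.6 and 356 CPM in the immunoprecipitate against 340 to 353 CPM in Input, so that A and B were low and C was not.

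Outside this stretch, PUM2:4 and PUM2:36 rose by less than 2-fold (0.77 ± 0.17 and 0.77 ± 0.21, adjusted p = 0.0160 and 0.0357 in edgeR). PUM2:4 had 377 to 405 CPM in Input and 570 to 797 CPM in the immunoprecipitate, and PUM2:36 had 413 to 430 and 518 to 843 CPM. Their neighbours PUM2:3, PUM2:5, PUM2:35 and PUM2:37 did not pass, at 1.24, -0.13, -0.33 and 0.56. Without any 1 Input library, PUM2:4, PUM2:36 and PUM2:44 no longer passed (adjusted p up to 0.0935, 0.134 and 0.0920 in edgeR). PUM2:36 was also lost without immunoprecipitate A or C, and PUM2:4 and PUM2:36 with library size as the only scaling.

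Of the 5 tiles that fell, 2 were consecutive. PUM2:71 had 301, 276 and 258 CPM in Input A, B and C and 94.0, 98.8 and 99.9 CPM in immunoprecipitates A, B and C. PUM2:72 had 331, 324 and 322 CPM in Input and 140, 122 and 92.2 CPM in the immunoprecipitate. The libraries of each group were close together and the groups far apart, with log2 fold changes of -1.51 ± 0.24 and -1.47 ± 0.25 (adjusted p = 0.00232 and 0.00368 in edgeR). Only 2 of 22 and 1 of 21 usable barcodes were higher. The close values rested on few barcodes. For PUM2:71, reads came from 4 barcodes in each immunoprecipitate, with 0 barcodes present in all 3, and 1 barcode held 64.2% of A. For PUM2:72 they came from 5, 6 and 4 barcodes in A, B and C, with 1 present in all 3. PUM2:70 and PUM2:73, on either side, were at -0.51 ± 0.30 and -0.66 ± 0.33 and did not pass.

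PUM2:15 and PUM2:21 fell by less than 2-fold. PUM2:15 had 787, 678 and 739 CPM in Input and 474, 482 and 362 CPM in the immunoprecipitate (-0.74 ± 0.17, adjusted p = 0.0177 in edgeR). PUM2:21 had 767, 652 and 677 CPM in Input and 459, 322 and 303 CPM in the immunoprecipitate (-0.95 ± 0.20, adjusted p = 0.0123 in edgeR). Their groups did not overlap. The tiles beside them, PUM2:14, PUM2:16, PUM2:20 and PUM2:22, lay between -0.25 and -0.55 and did not pass. The call of PUM2:15 was lost without any 1 Input library (adjusted p up to 0.107 in edgeR), and that of PUM2:21 without Input A (adjusted p = 0.0731 in edgeR).

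The fifth, PUM2:76, had 279, 218 and 35 reads in Input A, B and C and 0 in every immunoprecipitate. If reads were independent, a limit of 3 counts over the immunoprecipitate group would put it lower by at least 6.32 on the log2 scale. That bound does not cover the loss of whole barcodes. Reads of PUM2:76 came from 5 of 22 barcodes, 1 of which held 67.9% of them in Input. In Input A, B and C, 4, 3 and 1 barcodes had reads. The call (adjusted p = 0.0415 in edgeR) was lost without any 1 Input library, without immunoprecipitate B, with the column letter as a block, and with either other filter on low counts (adjusted p of 0.0538 to 0.226 in edgeR). PUM2:75 and PUM2:77, beside it, were at 0.17 and -0.10.

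The number that fell moved with single libraries, in the PUM2 mRNA and in the whole pool. Without Input A, B and C, 2, 3 and 3 PUM2 mRNA tiles fell, and without immunoprecipitates A, B and C, 7, 8 and 11 did. Over all tested tiles, 0.767%, 0.958% and 1.21% fell without Input A, B and C, and 7.32%, 7.2% and 9.31% without immunoprecipitates A, B and C. The PUM2 mRNA tiles that rose numbered 17 without each Input library (pool 11.4% to 11.6%) and 24, 23 and 21 without immunoprecipitates A, B and C (pool 15.1% to 16.8%). With library size as the only scaling, 18 rose and 13 fell, against 12.7% and 14.5% of the pool, and the median of all tested tiles moved from -0.06 to -0.29. Without the most-read barcode of every tile, 18 rose and 4 fell, against 14.3% and 3.73% of the pool.

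Tiles with neighbouring numbers tended to have like values, but not throughout, as with PUM2:79 at -0.87 and PUM2:80 at 5.41. Over 78 pairs of consecutive numbers of the PUM2 mRNA, the correlation of log2 fold changes was 0.42 by Pearson's r and 0.56 by Spearman's rho. At a distance of 2 numbers these were 0.30 and 0.30, at 3 they were 0.27 and 0.26, and at 4 they were -0.01 and 0.13. PUM2:76 entered at its fitted log2 fold change of -10.09 and not at its bound. The pairs share libraries and, possibly, sequence, since the labels do not say whether consecutive tiles overlap. The 20 rises fell into 8 unbroken runs, the longest of 5 tiles, and the 5 falls into 4.

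Tiles that rose were less abundant in Input than the others. Their mean Input level ran from 22.5 to 424 CPM with a median of 93.7 CPM. The median of the 54 tiles that did not pass was 509 CPM. By tile number, the median Input level was 627 CPM for tiles 1 to 40, 129 CPM for tiles 41 to 70 and 184 CPM for tiles 71 to 81. Across the 79 tiles, log2 Input level and log2 fold change had a correlation of -0.33 (Pearson) and -0.44 (Spearman). This is a description only, since Input enters both values and the tiles share libraries.

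Input level was therefore held to the range of the tiles that rose. Within it, 20 of 42 PUM2 mRNA tiles rose (47.6%), against 143 of 752 tiles of the other source RNAs (19.0%). In the same range, 16 of 26 tiles numbered 41 to 70 rose, and 2 of 7 numbered 1 to 40. The range comes from the PUM2 tiles that rose, so all of these fall inside it by construction. Rises of other source RNAs could fall outside it and were then left out. The choice of range therefore favours the PUM2 mRNA, and the shares are not compared like for like. What part the Input level has in the rises was not tested.

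Many barcodes seen in Input had no read in the immunoprecipitate. In Input, 11.4% to 12.1% of the 1782 barcodes of PUM2 mRNA tiles had no read, and in the immunoprecipitates 45.8% to 51.2%. For the whole pool the shares were 9.16% to 9.40% and 46.8% to 51.5%. Of 415 usable barcodes in the tiles that rose, 338 were higher in the immunoprecipitate (81.4%), compared with 8 of 91 (8.79%) in the tiles that fell and 318 of 1113 (28.6%) in those that did not pass. Tiles were called on the sum of these same barcodes, so the difference between these shares follows in part from the calls. Barcodes of 1 tile share its sequence and libraries and were not used as replicates.

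The spread of reads over barcodes also differed between the tiles. In tiles that rose, the most-read barcode took a median of 12.8% of Input reads and 12.9% of immunoprecipitate reads. In tiles that did not pass the medians were 9.17% and 15.6%. Single barcodes held 77.0% of the immunoprecipitate reads of PUM2:51 and 64.2% of those of PUM2:55, neither of which passed. Tiles that rose could also lean on 1 barcode in a single library. It held 71.3% of the reads of PUM2:61 in immunoprecipitate A, 61.8% of PUM2:62 in B and 60.2% of PUM2:54 in C. PUM2:3, which had a 2.36-fold higher value and did not pass, had all reads of immunoprecipitate A from 1 barcode. The sources used here name no molecular identifiers, so a read is not an independent molecule.

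Among the 20 source RNAs with at least 20 tested tiles, the PUM2 mRNA had the second highest share of tiles that rose, after NORAD. NORAD, a noncoding RNA known to bind Pumilio proteins at many places, had 27 of 66 (40.9%). LNPEP, an aminopeptidase mRNA, had 32 of 156 (20.5%). At the low end stood TUBA1B, a tubulin mRNA, with 1 of 20 (5.00%). These shares are a description: whether that of the PUM2 mRNA differs from the others was not tested, and neighbouring tiles are not independent.

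The medians of NORAD and the PUM2 mRNA were also unlike. NORAD had a median log2 fold change of 0.32 over all its tested tiles, whereas the PUM2 mRNA had -0.04. In the PUM2 mRNA the rises were thus a minority of tiles around a level near that of the pool. LNPEP was like it, with a median of -0.04, and in NORAD too the rises were a minority (27 of 66). The highest tile of NORAD was at 5.68, near the 5.41 of PUM2:80. The correlation of consecutive tiles in NORAD was 0.31 (Pearson) and 0.27 (Spearman) over 64 pairs.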

How the data were processed

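The authors deposited 1 table for this pool, with raw read counts per tile and barcode from single-end amplicon sequencing of cDNA; per the file headers there is 1 column per library. How reads were assigned to tiles is not given in the sources used here. Columns carry letters, the labels numbers, so columns were placed in their group only; 0 columns were unmatched. Counts were summed over barcodes. In R 4.3.3, edgeR 4.0.16 was run on all tiles of the pool (filterByExpr for low counts, TMM for scaling, quasi-likelihood F test with robust estimation), with Benjamini-Hochberg adjustment over all tested tiles and a threshold of 0.05. SE is the absolute log2 fold change over the square root of F. Log2 ratios per library used a prior count of 2. Usable barcodes had at least 30 reads over the 6 libraries and were compared on counts divided by library size. Scripts were checked on simulated counts. Within groups, tile counts of library pairs differed by a chi-square of 71.6 to 666 per degree of freedom, so no library was a copy of another. Alternatives were library size or RLE factors as scaling, a minimum mean count of 50 or none at all as filter, DESeq2 1.42.0, the column letter as a block, each library left out, each tile's most-read barcode left out, and no robust estimation. Named tiles were all called ones, the tiles beside runs, and the 3 highest and 3 lowest that did not pass. Tiles and lists were chosen with earlier results of these data known. Bounds and barcode counts cover counting error only. The result for 1 source RNA of the pool is not reported here.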

Additional observations from a re-analysis of the deposited data

How the results depend on the processing

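The number of PUM2 mRNA tiles called higher (20) was 17 to 24 when each library was left out in turn, 18 by library size alone, 25 by DESeq2 and 18 without each tile's most-read barcode. Of tiles 41 to 70, 15 to 19 were called higher in these leave-one-out fits. The number called lower (5) was 2 to 11 when each library was left out, 13 by library size alone and 9 by DESeq2. Of all tested tiles, 0.767% to 9.31%, 14.5% and 10.8% were then called lower, so the pool moved alike. DESeq2 called 18.6% of them higher. Calls over the pool (285) numbered 192 to 410 when each library was left out and 460 by DESeq2. The PUM2 mRNA share of reads in the immunoprecipitate minus Input (0.335 percentage points) was 0.302 to 0.380 without each library in turn. With the column letter as a replicate block, 20 PUM2 mRNA tiles were higher and 5 lower; PUM2:76 was lost and PUM2:56 gained (adjusted p = 0.157 and 0.0347 in edgeR). Deviations of same-letter libraries correlated at -0.04, 0.01 and -0.02, and those of libraries with different letters at -0.04 to 0.07. Such low values cannot tell whether the letters pair the libraries, since spread within the immunoprecipitates could hide a pairing. Of the named tiles that did not pass, PUM2:16, PUM2:20, PUM2:22, PUM2:37, PUM2:43, PUM2:46, PUM2:50, PUM2:51, PUM2:55, PUM2:56 and PUM2:63 each passed under 1 to 4 of the alternatives. None of the 25 called tiles changed sign under any alternative that tested it; of the 23 other named tiles, PUM2:5, PUM2:52, PUM2:57, PUM2:75 and PUM2:77 did, without passing. The causes of these shifts were not tested.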
